A study of Rattus norvegicus with 31 samples.

Results

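The comparison described here is between colon libraries of rats on a high salt diet with calcitriol (CAL, 6 libraries) and colon libraries of normal controls (NC, 5 libraries). These 11 libraries were taken by their labels from the 31 of the series, which also holds a high salt group without calcitriol (HS) and kidney cortex of every group. RNA-seq counts were used for all genes. The labels give neither strain, sex nor age, nor the salt content, the calcitriol dose or the length of treatment. The CAL group had both the salt and the calcitriol, so in its difference from NC the 2 agents cannot be told apart. The HS colon libraries (n = 5) are given beside some of the genes, as values only. Means given for HS hold all 5 of its libraries. Nothing in the labels says that the replicates are separate animals, so p-values measure the spread between these libraries, which may be technical.

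Calcitriol is the active form of vitamin D. It binds the vitamin D receptor, a nuclear receptor that pairs with the retinoid X receptor and in the gut turns on genes for calcium uptake. The colon surface is built of absorptive colonocytes and mucus-secreting goblet cells. Resistin-like molecules are small, cysteine-rich secreted proteins. RELM-beta, made by goblet cells, is released into the mucus and acts against bacteria and worms, and RELM-alpha is known from macrophages and epithelia in type 2 immune responses.

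The libraries were shallow. Total counts per library ran from 375193 to 764013 in NC and from 267976 to 825547 in CAL, and 6899 of 20207 listed genes had enough counts to be tested. A count of 0 allows up to 3 counts, which in the shallowest library was 11.2 CPM (the gene's counts as a share of the library's total, scaled to 1000000), for counting error only. The tissue label held: 19 surface colonocyte markers together took 6.06% to 6.46% of the counts in NC and 5.56% to 8.05% in CAL, while 12 kidney tubule markers took at most 0.0184% in NC and 0.00959% in CAL. On a principal component analysis of the 11 libraries, CAL replicates 3 and 4 lay apart on the first axis (23.9% of the variance), at -26.2 and -12.3, against -1.91 to 8.26 for the other 9. Among the HS libraries, replicate 3 stood apart: 16 small intestine markers took 2.63% of its counts against at most 0.0812% in the other 15 colon libraries, and 19 T and innate lymphoid cell markers 0.250% against at most 0.0552%. The 11 distal colon and rectum markers had no count in it, against 0.0784% to 0.256% elsewhere. Within the groups compared, the 7 proximal colon and caecum markers took 0.101% to 0.480% in NC and 0.0355% to 0.286% in CAL. The small intestine markers took 0.0190% to 0.0812% in NC and 0.0199% to 0.0496% in CAL. By exact permutation, adjusted over 25 marker lists, p was 0.889 and 0.731 for these lists.

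Of the RELM genes, 2 differed between the groups: Retnlb, which encodes RELM-beta, and Retnla, which encodes RELM-alpha, were both lower with salt plus calcitriol. They were 2 of 6899 genes, or 0.0290%, past an adjusted p of 0.05 (edgeR quasi-likelihood test, Benjamini-Hochberg over all genes tested). No gene passed as higher in CAL in this edgeR fit, in DESeq2 or in limma's voom, while 17 did in edgeR without the filter on low counts. At an unadjusted p under 0.05 edgeR had 217 genes higher (3.15%) and 227 lower (3.29%), where 345 in all would come by chance if no gene differed. Groups that did not overlap, with each CAL library below every NC library, were found for 30 genes (0.435%), and with each CAL library above for 14 (0.203%).

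Retnla and Retnlb lie side by side on rat chromosome 11 with Retnlg, another member of the family, and RefSeq lists no gene between the 3. The 250 bases before the RefSeq start (GRCr8) of the pair that passed and of the gene next in p, Mcpt1, are shown so that their promoters can be compared. These are Retnlb (chr11:65448320-65448569, minus strand), Retnla (chr11:65426187-65426436, minus strand) and Mcpt1 (chr15:33841356-33841605, plus strand), each 5′ to 3′ along the gene. Capitals mark matches to a STAT6 site (TTC and GAA with any 4 bases between), a TATA box (TATAAA) or a direct repeat bound by the vitamin D receptor (GNTCA, any 4 bases, GNTCA), searched on both strands.
Retnlb: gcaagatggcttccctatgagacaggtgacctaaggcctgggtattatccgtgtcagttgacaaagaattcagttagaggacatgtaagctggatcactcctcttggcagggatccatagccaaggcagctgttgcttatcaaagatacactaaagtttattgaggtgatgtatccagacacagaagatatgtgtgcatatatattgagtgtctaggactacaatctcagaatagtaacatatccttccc
Retnla: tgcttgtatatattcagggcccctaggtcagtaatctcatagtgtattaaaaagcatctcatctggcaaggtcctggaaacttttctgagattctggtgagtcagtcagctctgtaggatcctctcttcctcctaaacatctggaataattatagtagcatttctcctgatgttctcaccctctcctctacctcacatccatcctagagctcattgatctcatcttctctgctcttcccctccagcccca
Mcpt1: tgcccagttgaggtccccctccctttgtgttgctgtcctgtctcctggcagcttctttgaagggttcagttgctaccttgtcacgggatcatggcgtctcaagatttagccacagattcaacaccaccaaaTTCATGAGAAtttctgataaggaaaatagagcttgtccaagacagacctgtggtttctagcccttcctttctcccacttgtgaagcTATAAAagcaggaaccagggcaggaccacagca
No match to any of the 3 motifs was in the Retnlb or Retnla window. Mcpt1 held 1 STAT6 match and 1 TATA box, and these did not overlap. Among 33469 RefSeq promoters of the same length the STAT6 letters were in 6.25%, the TATA box in 12.9% and the vitamin D receptor repeat in 0.636%. Aligned to each other, the Retnlb and Retnla windows were identical at 44.3% of positions, and each was about as like Mcpt1 (47.3% and 46.7%). The matches describe letters in these windows and nothing of what binds there.

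Retnlb stood at 2052, 402, 677, 508 and 398 CPM in NC replicates 1 to 5. In CAL replicates 1 to 6 it stood at 128, 64.5, 134, 27.9, 140.2 and 80.0 CPM. Every CAL library was thus below the lowest NC library, and NC replicate 1 was far above the other controls. The means were 807 ± 705 CPM in NC (SD, n = 5) and 95.9 ± 45.5 CPM in CAL (SD, n = 6), and the fitted log2 fold change was -3.07 (SE 0.43, edgeR adjusted p = 0.00450). Without NC replicate 1 the log2 fold change was -2.34 (adjusted p = 9.25e-04). In HS, 3 libraries were at 362, 606 and 527 CPM, within or near the NC range, and the others at 12.02 and 19.63 CPM. The lowest of these is replicate 3, the library with the small intestine markers, and the part of those markers in its level was not tested.

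Retnla stood at 2129.9, 549.8, 813, 441 and 572 CPM in NC replicates 1 to 5. In CAL replicates 1 to 6 it stood at 199, 32.3, 85.8, 32.5, 159 and 146 CPM. The same control library was the highest for both genes, and again no CAL library reached the control range. The means were 901 ± 700 CPM in NC (SD, n = 5) and 109 ± 69.6 CPM in CAL (SD, n = 6), with a log2 fold change of -3.01 (SE 0.45, edgeR adjusted p = 0.00519). Without NC replicate 1 it was -2.38 (adjusted p = 0.00446). In HS the levels were 395, 616, 0, 369 and 13.1 CPM, so that the 2 libraries low in Retnlb were low in Retnla too, and the one at 0 is again replicate 3. Without it, HS ran from 19.6 to 606 CPM for Retnlb and from 13.1 to 616 CPM for Retnla. Retnlg had 5.33 to 37.7 CPM in NC and 3.46 to 17.6 CPM in CAL and had too few counts to be tested.

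Each of the 11 fits that left out 1 library kept both calls, with adjusted p up to 0.0206 for Retnlb and 0.0218 for Retnla. DESeq2 called both as well (adjusted p = 8.49e-04 and 0.00389), as did voom (0.00911 for each). The calls ended where the HS libraries shared the estimate of spread (adjusted p = 0.864 for Retnlb and 0.9999 for Retnla), also without HS replicates 3 and 4 (0.115 and 0.126), and under edgeR's robust estimate of the spread (0.353 and 0.359). The fit without HS replicates 3 and 4 kept the HS library at 19.6 CPM for Retnlb and 13.1 CPM for Retnla. How reads that map to more than 1 gene were counted is not given in the sources used here. In bulk tissue, fewer cells of a type and less RNA per cell cannot be told apart. Nor could the pair be compared with kidney cortex, where Retnlb had no count in any library and Retnla at most 1.

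**Figure D1:**
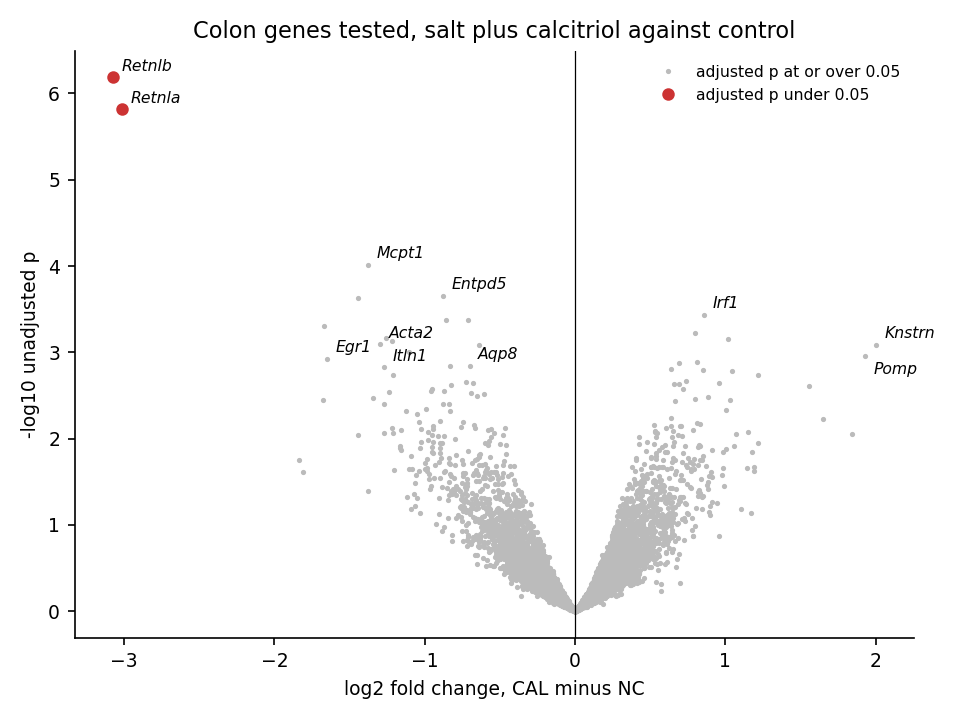
Each point is 1 of 6899 genes, with its log2 fold change (CAL against NC) on the x axis and -log10 of the unadjusted edgeR p on the y axis. Retnlb and Retnla, at -3.07 and -3.01, stand alone on the lower side as the 2 genes past an adjusted p of 0.05.

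The goblet cell list, which holds Retnlb, had its median near 0. Over all 6899 genes, 3.15% were higher and 3.29% lower at an unadjusted p under 0.05. A positive log2 fold change was found for 3626 of these genes and a negative one for 3273. The list counts here and below stand beside these shares. Of 13 tested genes on the goblet cell list, 0 were higher and 2 lower at an unadjusted p under 0.05, with a median log2 fold change of -0.05 against 0.01 over all genes. The count of 2 went to 1 without NC replicate 4 or 5, or CAL replicate 2, 3 or 4. Besides Retnlb it held Clca1, a mucus-processing protease of goblet cells, at -0.59 (SE 0.24, edgeR adjusted p = 0.702). Agr2, a disulfide isomerase needed to make mucin, was at 0.49 (SE 0.30, adjusted p = 0.830). The 15 listed goblet cell genes together took 2.09% to 3.22% of the counts in NC and 1.64% to 2.63% in CAL, with a log2 difference of -0.21 (exact permutation test, 2-sided p = 0.197, adjusted over 25 cell type lists 0.731).

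Among 8 tested antimicrobial proteins of the epithelium, 2 were lower at an unadjusted p under 0.05 (3.29% of all genes), Retnlb and Itln1. Of the 8, 0 were higher, and the median was -0.03. Itln1, intelectin-1, is a secreted lectin that binds sugars of microbial surfaces. It stood at 7981, 3795, 2599, 4438 and 3579 CPM in NC and at 579 (lowest), 1929.9 (median) and 3012 CPM (highest) in CAL. The groups overlapped, and the log2 fold change was -1.27 (SE 0.35, adjusted p = 0.421). Its mean was 1555 ± 1461 CPM in HS and 1822 ± 906 CPM in CAL (SD). Lypd8, a colonocyte protein that keeps flagellated bacteria from the mucosa, was at 0.14 (SE 0.19). Pigr, the receptor that carries antibodies across the epithelium, was at -0.40 (SE 0.21, adjusted p = 0.805).

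Type 2 cytokines, which are known to induce RELM genes, were hardly seen. Il13 and Il25 had no count in any of the 11 libraries, and Il4 and Il5 at most 1 count in a library. Il33, an alarmin of epithelium and stroma, stood at 117 to 236 CPM in NC and at 33.1 to 150.1 CPM in CAL, with a log2 fold change of -0.72 (SE 0.27, edgeR adjusted p = 0.685). On the wider list of cytokines, chemokines and NF-kB targets 16 genes were tested. At an unadjusted p under 0.05, 1 was higher (3.15% of all genes) and 3 lower (3.29%). The higher one was Ccl28, an epithelial chemokine that draws antibody-secreting cells, at 0.70 (SE 0.23). The others were Nfkbia, the inhibitor of NF-kB, at -0.69 (SE 0.20) and Ccl20, a chemokine for lymphocytes and dendritic cells, at -0.68 (SE 0.32). None of the 4 had an adjusted p under 0.478, and the count on the lower side went from 3 to 1 without NC replicate 5 and to 5 without CAL replicate 5.

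Mcpt1, a serine protease of mast cells, had the third smallest p. It stood at 331, 233, 272, 140.0 and 240.5 CPM in NC and at 49.7 (lowest), 78.7 (median) and 187 CPM (highest) in CAL. The 2 groups overlapped only through NC replicate 4 and CAL replicate 3. Mcpt1 had a mean of 116 ± 96.2 CPM in HS, 94.7 ± 52.7 CPM in CAL and 243 ± 69.5 CPM in NC (SD). Its log2 fold change was -1.38 (SE 0.28, edgeR adjusted p = 0.221), and it passed without NC replicate 4 (0.0384), without CAL replicate 3 (0.0218) and in voom (0.0406). How reads shared with the close copy Mcpt1l1 were counted is not given in the sources used here. The other tested mast cell genes were nearer 0, with Cpa3, a mast cell carboxypeptidase, at -0.42 (SE 0.36, and -0.11 without NC replicate 2) and Kit, the stem cell factor receptor, at -0.04 (SE 0.38). Summed, the 10 mast cell genes took 0.0194% to 0.0397% of the counts in NC and 0.00883% to 0.0235% in CAL, a log2 difference of -1.14 (exact permutation test, 2-sided p = 0.00866, adjusted over 25 lists 0.216). Most of that sum was Mcpt1 itself, at means of 0.0243% in NC and 0.00947% in CAL, so the sum is no separate result. The other 9 genes, an alternative added after seeing the data, took 0.00537% to 0.00853% in NC and 0.00346% to 0.00715% in CAL, with overlap. Of this list Tpsb2 had no count in NC, and Mcpt4 had at most 3 counts in a library of NC and none in CAL.

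**Figure D2:**
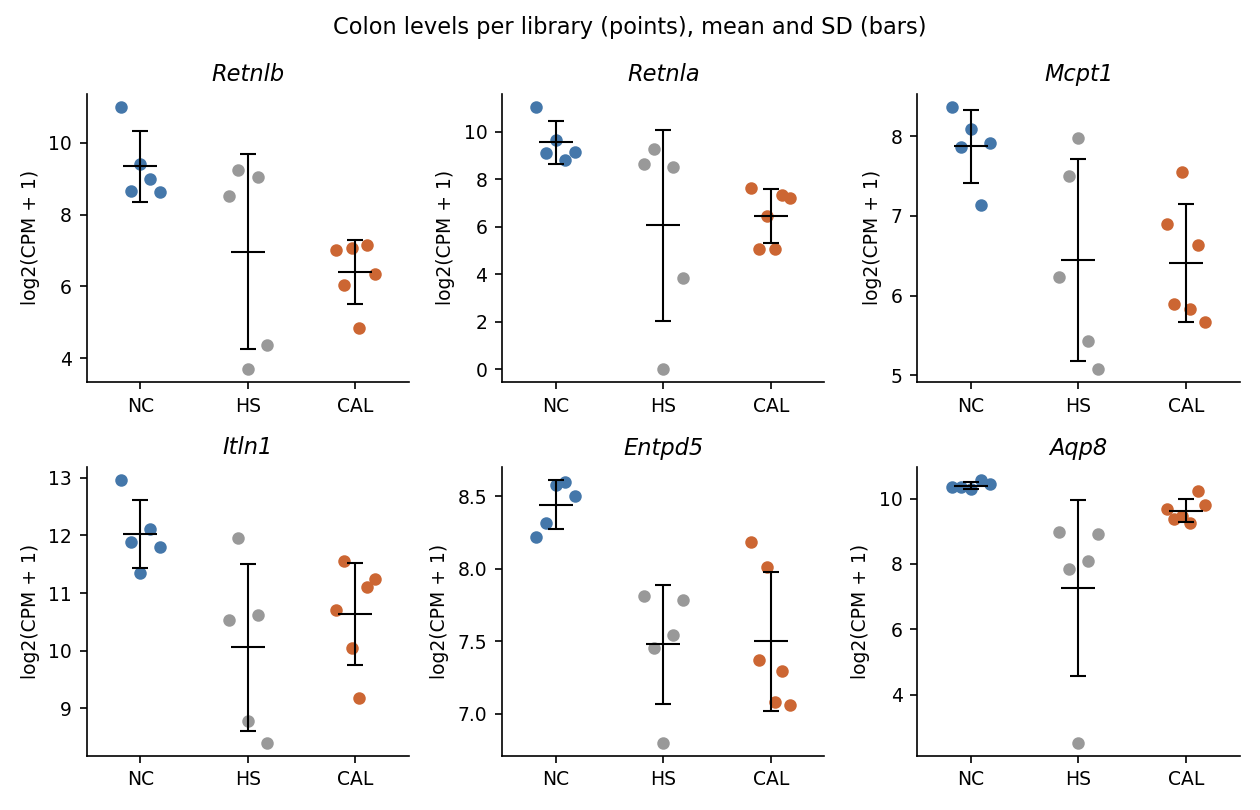
Each point is the level of a gene in 1 colon library as log2(CPM + 1) on the y axis, for NC (n = 5), HS (n = 5) and CAL (n = 6), with the mean and SD as bars. CAL points of Retnlb, Retnla, Entpd5 and Aqp8 all lie below the NC points, and those of Mcpt1 and Itln1 overlap them. The lowest HS point of Retnlb, Retnla and Aqp8 is replicate 3, which carries small intestine markers (2.63% of its counts).

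Past these, the genes lowest in CAL by p were of mixed function, and none passed (adjusted p 0.323 to 0.359). Entpd5, an enzyme of the endoplasmic reticulum that helps glycoproteins fold, stood at 297, 318, 381, 387 and 362 CPM in NC and at 132 (lowest), 160.0 (median) and 289.5 CPM (highest) in CAL. No library overlapped, and its log2 fold change was -0.88 (SE 0.20), with a pass in voom (adjusted p = 0.0260) and without CAL replicate 1 (0.0287). Its mean was 183 ± 45.6 CPM in HS and 189 ± 67.3 CPM in CAL (SD). Groups also did not overlap for the RNA-binding protein gene Ybx1 (-0.71, SE 0.17), for Cbx1, a heterochromatin protein (-1.26, SE 0.31), and for Nxpe2 (-1.21, SE 0.31). Tln1, talin, which ties integrins to actin, was at -0.86 (SE 0.20), and Rbpms, an RNA-binding protein of smooth muscle, at -1.67 (SE 0.40).

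The 10 genes highest in CAL by p had adjusted p from 0.359 to 0.421. The largest were Knstrn, a protein of the mitotic spindle, at 2.003 (SE 0.509), and Pomp, which assembles proteasomes, at 1.93 (SE 0.51), both at low levels in NC (means of 7.65 and 14.4 CPM). No overlap between groups was found for Irf1 (0.86), Rin2 (1.02), the epithelial kinase gene Ripk4 (0.81), Abhd5, an activator of fat breakdown (0.64), and Frmd8 (0.85). Niban2 (0.80), Edem2, which clears misfolded glycoproteins (0.69), and the interferon-induced gene Parp9 (1.05) made up the rest.

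Interferon response genes lay on the higher side. Of 15 tested, 14 had a positive log2 fold change and 6 were higher at an unadjusted p under 0.05, with a median of 0.53, and none passed the adjusted threshold. Over all 6899 genes, 3626 were positive and 3.15% higher at that unadjusted p. Irf1, a transcription factor induced by interferon, stood at 117, 59.4, 77.3, 96.9 and 99.0 CPM in NC and at 127 (lowest), 149.8 (median) and 225 CPM (highest) in CAL. Its log2 fold change was 0.86 (SE 0.20, edgeR adjusted p = 0.359). The mean of Irf1 was 161 ± 35.4 CPM in CAL and 197 ± 118 CPM in HS (SD). Irf7, which switches on type I interferon genes, was at 0.89 (SE 0.27), the ubiquitin-like Isg15 at 0.79 (SE 0.30) and Irf9, part of the factor that type I interferon activates, at 0.88 (SE 0.40, and 0.51 without CAL replicate 1). CAL replicate 1 was the highest CAL library for Irf1, and for Irf7 it stood apart at 216 CPM. Without CAL replicate 1, 14 of the list were tested and 11 were positive (median 0.39), with 4 higher and 1 lower at an unadjusted p under 0.05. The count of 6 went to 3 without NC replicate 2, NC replicate 4 or CAL replicate 5 and to 2 without NC replicate 5. With all 3 colon groups in the fit it was 2 of 14 tested, and with libraries thinned to 1 depth 2 of 9. In voom the list median was 0.27 with 5 higher, and in DESeq2 it was 0.49 with 4 higher.

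Smooth muscle genes lay on the lower side. Of 21 tested, 20 had a negative log2 fold change and 15 were lower at an unadjusted p under 0.05, with a median of -0.81, and none passed the adjusted threshold. Over all 6899 genes, 3273 were negative and 3.29% lower at that unadjusted p. Actg2, the gut smooth muscle actin, stood at 712, 3545, 4843, 708 and 3788 CPM in NC and at 776 (lowest), 1054 (median) and 1548 CPM (highest) in CAL. NC replicates 2, 3 and 5 were high, and the other 2 controls were below every CAL library. Its log2 fold change was -1.27 (SE 0.39, edgeR adjusted p = 0.510). Acta2, vascular and visceral actin, was at -1.30 (SE 0.33, adjusted p = 0.359), the contraction regulator Cnn1, calponin, at -1.22 (SE 0.41) and Tpm2, a tropomyosin, at -0.95 (SE 0.32).

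The amount of muscle RNA differed among the controls themselves. The summed level of 23 smooth muscle genes was 0.643%, 2.26%, 2.60%, 0.605% and 2.22% of the counts in NC and 0.680% to 1.08% in CAL, a log2 difference of -0.64 (exact permutation test, 2-sided p = 0.167, adjusted 0.731). The count of 15 went to 8 without NC replicate 2 or 3, to 6 without NC replicate 5, to 9 in voom or under the robust estimate of spread and to 2 with all 3 colon groups in the fit. With the summed muscle level as a covariate, an alternative chosen after seeing the data, Retnlb was at -3.25 (edgeR adjusted p = 7.18e-04) and Retnla at -3.11 (0.00360).

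**Figure D3:**
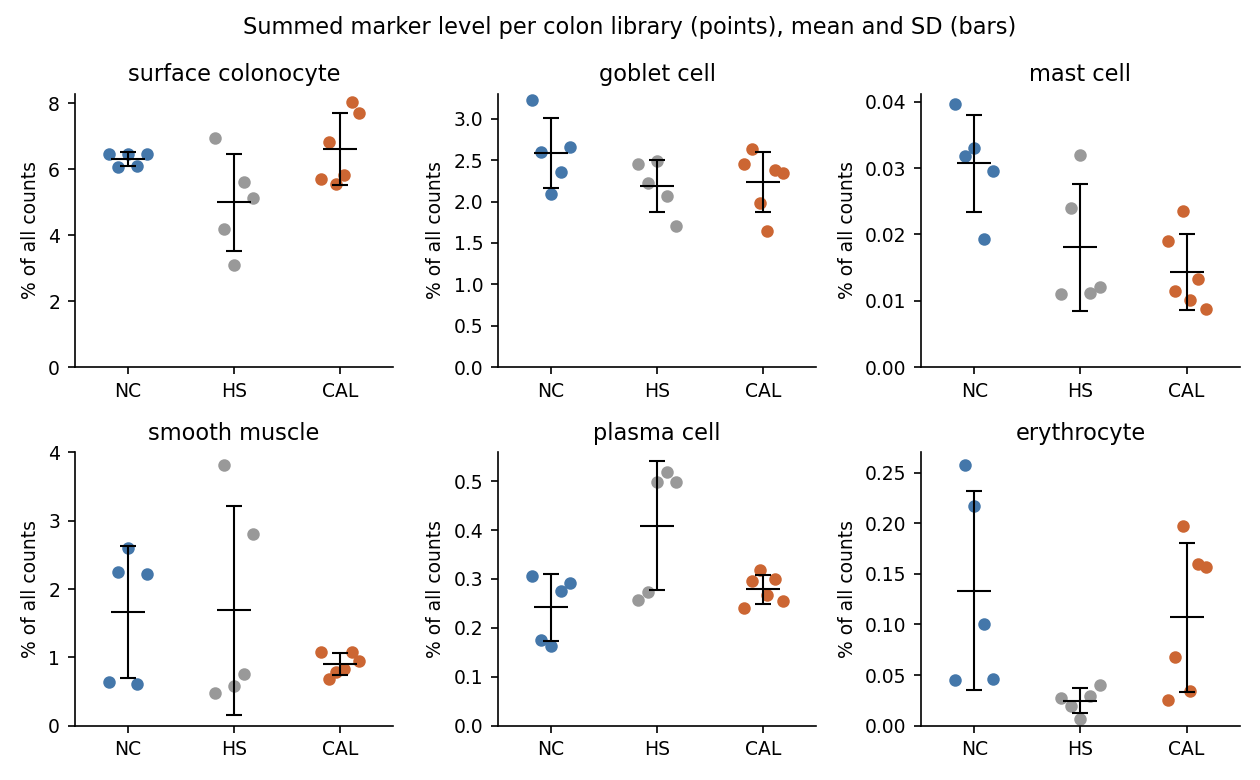
Each point is the summed level of a cell type's marker genes in 1 colon library, as a percentage of all counts on the y axis, for NC, HS and CAL, with the mean and SD as bars. Smooth muscle falls into a high and a low set within NC, and mast cell markers are lower in most CAL libraries, with overlap.

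The vitamin D receptor gene itself did not differ beyond its error. Vdr stood at 258 to 632 CPM in NC and at 246 to 426 CPM in CAL (log2 fold change 0.04, SE 0.22). Cyp24a1, the calcitriol-degrading enzyme and a classical target, had at most 1 count in a library of either group and could not be tested. Trpv6, the calcium channel of the luminal membrane, was at 0.30 (SE 0.22, adjusted p = 0.888), and S100g, the calcium-binding protein calbindin-D9k, at -0.72 (SE 0.44, adjusted p = 0.830). S100g spread widely in NC, from 965 to 9971 CPM, and was at -0.22 without NC replicate 4. Atp2b1, the basolateral calcium pump, was at -0.40 (SE 0.16, edgeR adjusted p = 0.699).

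On the list of vitamin D targets and calcium transport 14 of 28 genes were tested. At an unadjusted p under 0.05, 0 were higher (3.15% of all genes) and 4 lower (3.29%), with a list median of -0.32. The median was -0.13 without NC replicate 4, -0.14 without CAL replicate 4 and -0.05 with thinned libraries. The lower count went to 2 with all 3 colon groups in the fit and to 7 without the filter on low counts. With the summed muscle level as a covariate the median was -0.02, with 7 of 14 positive and 5 lower at that unadjusted p. Besides Atp2b1, those lower in the main fit were the cell cycle inhibitor Cdkn1a (-0.72, SE 0.21) and the transcription factor gene Cebpb (-0.84, SE 0.32). The last was the sugar phosphate exchanger gene Slc37a2 (-0.81, SE 0.37, and -0.44 without NC replicate 4). Cdkn1a stood at 101 to 149 CPM in NC and 53.3 to 105 CPM in CAL, nearly without overlap. Its mean was 76.9 ± 19.7 CPM in CAL and 52.0 ± 17.7 CPM in HS (SD). None of the 4 passed, with adjusted p from 0.462 to 0.743.

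Of genes for sodium, chloride, acid-base and water transport 31 were tested, with a median of -0.16. At an unadjusted p under 0.05, 4 were lower (3.29% of all genes) and 0 higher (3.15%). Aqp8, a water channel of surface colonocytes, was the only one of them without overlap. It stood at 1299, 1317, 1250.0, 1514 and 1383 CPM in NC and at 607 (lowest), 761 (median) and 1202 CPM (highest) in CAL, with a log2 fold change of -0.70 (SE 0.19, edgeR adjusted p = 0.421). In the 5 HS libraries it lay between 4.81 and 503 CPM, below every CAL library. The low end is replicate 3, with its small intestine markers, and the other 4 ran from 229 to 503 CPM. The others were Ca12, a membrane carbonic anhydrase (-0.82, SE 0.24), Guca2b, the hormone uroguanylin (-1.17, SE 0.43, and -0.69 without NC replicate 5), and its receptor Gucy2c (-0.48, SE 0.21, and -0.73 without CAL replicate 1). With 1 library left out, 3 to 6 of the list were lower at that unadjusted p. On the higher side there were 2 without NC replicate 1, and 1 without CAL replicate 3 or 4.

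None of the sodium and chloride transporters named next had an unadjusted edgeR p under 0.05. The epithelial sodium channel subunits Scnn1a and Scnn1b were at 0.05 (SE 0.21) and -0.28 (SE 0.48), and Scnn1b was at -1.003 without CAL replicate 1 and -0.057 without CAL replicate 4. Scnn1g had too few counts to be tested. The sodium-proton exchanger Slc9a3 was at -0.19 (SE 0.53) and the chloride-bicarbonate exchanger Slc26a3 at -0.15 (SE 0.22). Cldn2, a cation-conducting tight junction protein, was at 0.23 (SE 0.37). Agt, angiotensinogen, had 0 to 7.996 CPM in NC and 0 to 3.46 CPM in CAL and was not tested.

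Of corticosteroid signalling genes 12 were tested, with a median of -0.16. At an unadjusted p under 0.05, 4 were lower (3.29% of all genes) and 0 higher (3.15%). Hsd11b2, which inactivates glucocorticoids and so guards the mineralocorticoid receptor, stood at 252 to 373 CPM in NC and 107 to 246 CPM in CAL, without overlap (log2 fold change -0.57, SE 0.20, edgeR adjusted p = 0.662). Fkbp5, a glucocorticoid-induced chaperone of steroid receptors, was at -1.34 (SE 0.40), the transcription factor gene Klf9 at -0.80 (SE 0.31, and -0.52 without NC replicate 4) and Nedd4l, the ubiquitin ligase of the epithelial sodium channel, at -0.52 (SE 0.22). Nr3c2, the mineralocorticoid receptor, was at 0.22 (SE 0.29) and its target Sgk1 at -0.14 (SE 0.30).

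The immediate early and heat shock genes with an unadjusted p under 0.05 in the main edgeR fit were all on the lower side. Of 16 tested immediate early genes, 5 were lower at an unadjusted p under 0.05 (3.29% of all genes) and 0 higher (median -0.17). Without NC replicate 4, 4 were lower and 2 higher, and 1 was higher without CAL replicate 2. Egr1 had the smallest p of this list in the main fit, at 7.86 to 85.3 CPM in NC and 6.93 to 26.7 CPM in CAL (log2 fold change -1.65, SE 0.44, adjusted p = 0.421), and passed without NC replicate 5 (0.0403). Of 16 tested heat shock and cytosolic chaperone genes, 4 were lower and 0 higher (median -0.09), and 2 were lower without NC replicate 3 or in voom. Without CAL replicate 1, or with thinned libraries, 1 of this list was higher. Hsph1, a nucleotide exchange factor of Hsp70, was without overlap at 40.9 to 54.8 CPM in NC and 12.1 to 37.6 CPM in CAL (-0.88, SE 0.27, adjusted p = 0.510). The small heat shock protein gene Cryab, which muscle also expresses, was at -0.98 (SE 0.35).

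Cytosolic ribosomal protein genes had small positive values. Of 55 tested, 51 were positive (3626 of 6899 over all genes), with a median of 0.23. At an unadjusted p under 0.05, 4 were higher (3.15% of all genes), led by Rpl15 at 0.56 (SE 0.22, edgeR adjusted p = 0.699). That count was 0 without NC replicate 2, NC replicate 4 or CAL replicate 3 and 19 without NC replicate 1 or CAL replicate 1. Of 10 tested Wnt signalling and stem cell genes, 2 were higher, Prom1 at 0.74 (SE 0.21) and the ephrin receptor gene Ephb3 at 1.14 (SE 0.46), with a median of 0.16, and 1 was higher without NC replicate 2, NC replicate 5 or CAL replicate 1. No gene passed on any of these lists.

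**Figure D4:**
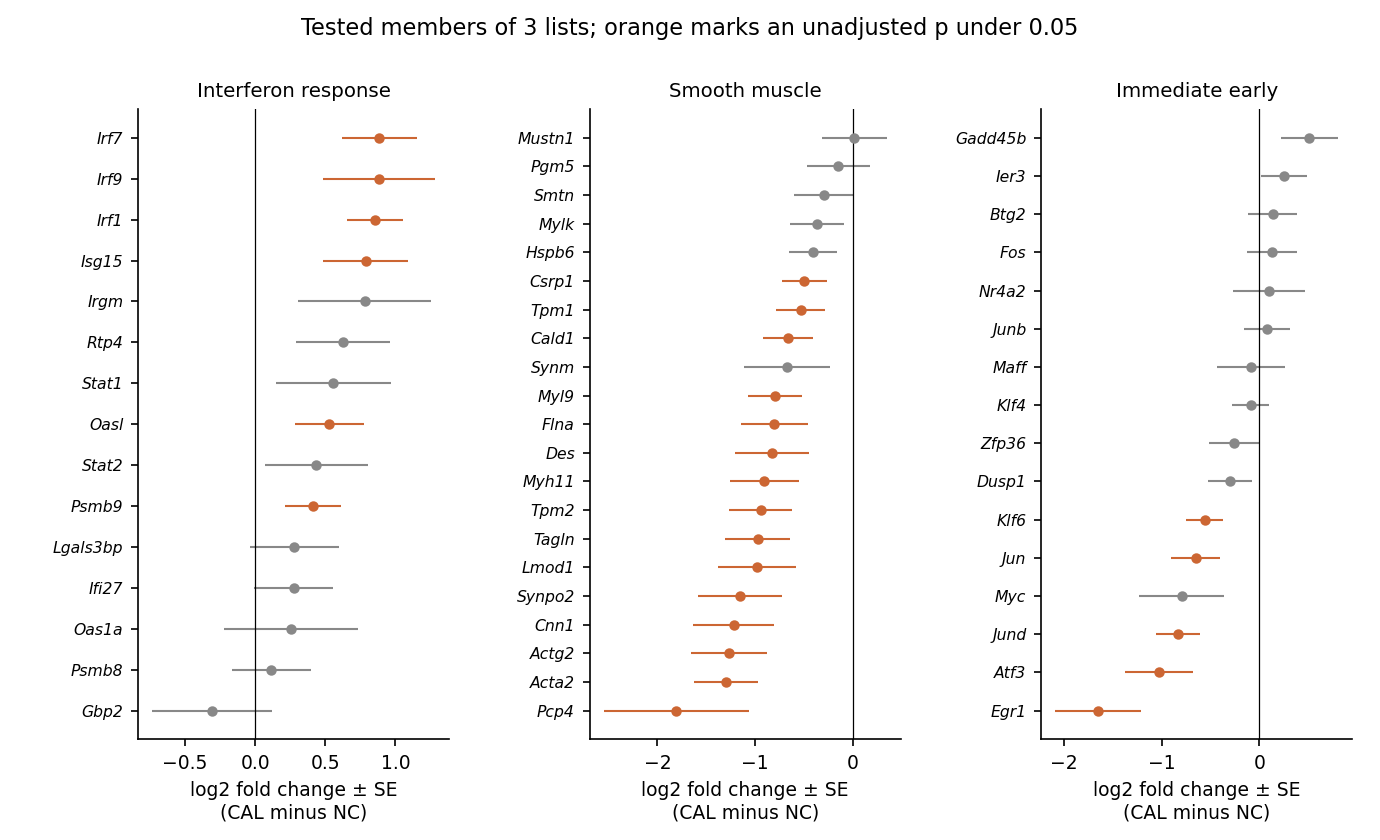
Each point is a tested gene of the interferon response, smooth muscle or immediate early list. Its log2 fold change (CAL against NC) and SE are on the x axis, with 1 gene a row. Smooth muscle genes lie mostly below 0 with a median of -0.81 and interferon response genes mostly above 0 with a median of 0.53. Immediate early genes lie on both sides of 0, with a median of -0.17.

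Whether colon and kidney cortex differed in their CAL against NC effect was tested for 5539 genes with enough counts in both. None passed in edgeR or in voom (smallest adjusted p in edgeR 0.482), and 354 had an unadjusted p under 0.05. Colon values given next are from the colon fit above, and cortex values and differences from the joint fit of both tissues. Irf1 was at 0.86 in colon and -0.13 in cortex (difference 0.98, SE 0.35, adjusted p = 0.704). Entpd5 was at -0.88 in colon and -0.01 in cortex (difference -0.88, SE 0.23, adjusted p = 0.482). Some other genes had the same sign in both, with Prom1 at 0.74 in colon and 0.64 in cortex and Tln1 at -0.86 and -0.52. Abhd5 was at 0.64 and 0.53, while Frmd8 was at 0.85 and -0.29. In cortex alone, 0 of the 5539 genes passed the adjusted threshold.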

How the data were processed

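RNA from rat colon and kidney cortex was sequenced on a NextSeq 500 per the labels, and the library kit named in their protocols (TruePrep, tagmentation) keeps no strand information. The deposited table holds raw counts per gene, 1 column a library. The submitters' processing notes name FastQC 0.11.9, Trimmomatic 0.39, HISAT2 2.1.0, featureCounts 1.6.5 and the build Rnor_6.0. The annotation, the strand setting and the handling of shared reads are not given in the sources used here.

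Genes were kept by edgeR's filter (minimum count 10, minimum total 15), scaled by TMM and tested between 5 NC and 6 CAL colon libraries with edgeR 4.0.16 (quasi-likelihood, R 4.3.3), at a Benjamini-Hochberg adjusted p of 0.05. The fit held these 2 groups only, since 2 HS libraries were known from earlier results to lie apart. SE is the absolute log2 fold change over the square root of F. Levels are plain CPM. Marker sums were compared by exact permutation. The tissue difference was an interaction term. Alternatives used DESeq2 1.42.0, limma 3.58.1 voom with library weights, other filters, scalings and sample sets.

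Genes were named by rule: those past the threshold (up to 15 a direction), otherwise the 10 with the smallest p a direction at a mean log2 CPM of at least 4, with fixed salt and vitamin D genes and up to 4 members a list. One gene under this rule is not reported here. Type 2 cytokines, Retnlg and further mast cell genes were added after their values were seen. The comparison and lists were chosen with earlier results of these data known. List entries matched the table by symbol for 1010 of 1070, by a RefSeq synonym (GRCr8) for 12 and not for 48. Promoters are RefSeq's. No library pair was identical.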

Additional observations from a re-analysis of the deposited data

Results flagged for a closer look

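In 11 of 154 gene and group pairs checked, 1 library stood apart from the others of its group. Chance gives about 1 in 20 for independent values with a normal spread. CPM of related genes need not be so, and the 11 of 154 were not tested against that rate. NC replicate 1 was far above the other controls for Retnlb (2052 CPM, next 677) and Retnla (2129.9 CPM, next 813). CAL replicate 1 was the high library for Rin2 (84.8 CPM), Irf7 (216 CPM), Clca1 (9435 CPM) and Gucy2c (218 CPM), and CAL replicate 6 for Slc26a3 (2649 CPM). NC replicate 4 was high for Vdr (632 CPM, next 298) and Parp9 (41.9 CPM). NC replicate 5 was high for Il33 (236 CPM) and low for Myc (9.43 CPM). Whether these libraries differ in handling was not tested.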

How the results depend on the processing

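The count of 2 genes past the threshold, both lower, went to 0 with all 3 colon groups in the fit, with those groups less HS replicates 3 and 4, and under the robust estimate of spread, and to 4, all lower, in voom, which added Entpd5 and Mcpt1. Leaving out 1 library gave 2 to 5 genes, all lower: 5 without NC replicate 4 (Mcpt1, Acta2 and Ptn added) or CAL replicate 1 (Entpd5, Fbxo32 and Ddr1 added). Without the filter on low counts 79 genes passed, 17 higher and 62 lower, where the estimated prior degrees of freedom went from 11.1 to 2244, and 20 named genes passed only there. The cause of these shifts was not tested. Of the 77 named genes tested, those that changed sign had not passed. With 1 library left out, Vdr ranged from -0.045 to 0.36, Scnn1a from -0.040 to 0.15, Slc9a3 from -0.62 to 0.29, Sgk1 from -0.31 to 0.23, Kit from -0.22 to 0.20 and Cldn2 from -0.071 to 0.53. Without a change of sign, Trpv6 ranged from 0.18 to 0.46, Agr2 from 0.22 to 0.68, Lypd8 from 0.046 to 0.18, Nr3c2 from 0.093 to 0.46 and Slc26a3 from -0.35 to -0.030. The same fits gave list medians of -0.23 to -0.057 for ion and water transport, -0.29 to -0.077 for corticosteroid signalling, -0.33 to -0.034 for immediate early genes and 0.11 to 0.36 for ribosomal proteins. Vdr was at -0.051 with thinned libraries. In voom Scnn1a was at -0.00595, Sgk1 at 0.15 and Kit at 0.028. With the muscle covariate Vdr was at -0.10, Slc9a3 at 0.067 and Cnn1, itself part of that level, at 0.046. With the replicate number as a block (numbers 1 to 5), 2 genes passed, Retnlb and Retnla, 6 smooth muscle genes had an unadjusted p under 0.05 in place of 15, and Scnn1a was at -0.039. Deviations of same-numbered libraries from their group means had correlations of -0.30, -0.01, -0.02, 0.19 and -0.02 over 500 genes. Only NC replicate 4 was nearest the CAL library of its own number. Correlations this few cannot show whether same-numbered libraries shared anything beyond the number, and that was not tested. At these depths low genes such as Cyp24a1, Scnn1g and Agt could not be compared.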

Other observations

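Several groups not described above stayed close to the median of all genes (0.01). Of 66 tested genes of the nuclear-encoded respiratory chain, 31 of the proteasome, 24 of the unfolded protein response and 20 of the extracellular matrix, none had an unadjusted edgeR p under 0.05, and the medians were 0.02, 0.04, -0.04 and -0.04. Of 18 tested cholesterol synthesis genes 14 were positive (median 0.15), beside 3626 of 6899 over all genes. All 8 tested genes of MHC class II presentation were negative (median -0.23) and all 7 tested plasma cell genes positive (median 0.34), again with none at an unadjusted p under 0.05. Of 21 tested oxidative stress and Nrf2 genes 1 was higher, the metallothionein gene Mt2A at 1.84 (SE 0.63, adjusted p = 0.632), with 3 of 6 CAL libraries above the NC mean. Summed tuft cell markers took 0.0166% ± 0.0027 of the counts in NC (SD, n = 5) and 0.0130% ± 0.0026 in CAL (SD, n = 6), a log2 difference of -0.36 (exact permutation test, 2-sided p = 0.0476, adjusted over 25 lists 0.595).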
